A study of Talpa occidentalis with 6 samples.

Results

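The ovarian and the testicular portion of the ovotestis of the Iberian mole (Talpa occidentalis) were compared by their chromatin states, 200 bp by 200 bp. The regions compared were all bins of 200 bp on scaffolds 1 to 17 of the assembly talOcc4 without scaffold 15. These are 9580688 of the 10493388 bins of the deposited segmentations, or 1916 Mb. They were taken by position alone, without regard to their state. The tissues were wild type and came from postnatal day 7, with 2 samples for each portion. The labels do not say how many animals gave the cells, or whether both portions came from the same animals. The testis of males of the same genotype and day, again with 2 samples, is set beside them.

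Female moles of this species carry ovotestes, gonads in which an ovarian part with germ cells and follicles adjoins a testicular part. The testicular part lacks sperm production, and its interstitial cells are known for making androgens. ATAC-seq reads accessibility from the places where a transposase can insert adapters into DNA. Short accessible sites are typically promoters and enhancers, and wide regions of intermediate accessibility typically follow active stretches of chromosomes.

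Each portion is represented by 1 segmentation made from both of its samples, in which every bin carries 1 of 5 state numbers. Of the state boundaries, 99.7% in each portion joined states with neighbouring numbers. The numbers were therefore read as an ordered series. State 1, drawn in red in the files, was taken as its most accessible end and state 5, drawn in white, as the other end. A bin is called gained where the testicular portion carries the lower state number, and lost where it carries the higher one. The words describe a difference between tissues and not a change in time. With 1 pooled segmentation a portion there is no test between samples. How many bins would differ between the samples of 1 portion was not measured, and the depth is unknown. Neighbouring bins are not independent, so their shares are given without intervals. A lower state number in a piece of tissue can come from more cells of a type or from more accessible DNA in each cell, and these cannot be told apart. State numbers are taken to mean the same in both portions. Gene coordinates on this assembly were not used here, so no gene was assigned to a region and the tissue labels were not checked against marker genes.

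State 4 was the commonest state, with 1149.6 Mb in the ovarian and 1122.9 Mb in the testicular portion. State 3 covered 613.1 Mb and 648.5 Mb, state 2 covered 92.6 Mb and 83.7 Mb, and state 5 covered 42.8 Mb and 43.8 Mb. State 1 covered 17.98 Mb in the ovarian and 17.3 Mb in the testicular portion, or 0.938% and 0.905% of the bins. The testicular portion thus held more of states 3 and 5 and less of states 1, 2 and 4.

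The portions carried the same state in 6993212 bins, or 73.0%, and differed in 2587476 bins, or 27.0% (517.5 Mb). Of all bins, 13.9% were gained and 13.1% were lost, so gained bins exceeded lost bins by 85082, or 17.02 Mb. Single steps made up 98.5% of the differing bins. Exchange between states 3 and 4 alone made up 81.2% of them, and bins that entered or left state 1 made up 2.02%. For the other pairs of mole gonads the share of differing bins was 25.4% (testis against testicular portion) and 28.1% (testis against ovarian portion). The 3 pairs share segmentations with one another.

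Bins in state 1 in the ovarian portion were mostly kept or dropped by 1 step. Of these 89910 bins, 62163 (69.1%) were in state 1 in the testicular portion, 24679 (27.4%) in state 2, 2708 (3.01%) in state 3, 360 (0.4%) in state 4 and 0 in state 5. State 2 was kept least often. Of its 462984 bins in the ovarian portion, 244138 (52.7%) kept it, 176613 (38.1%) were in state 3, 21282 (4.6%) in state 1, 20885 (4.51%) in state 4 and 66 in state 5. Of the 3065465 bins in state 3, 1942313 (63.4%) kept it and 979474 (32.0%) were in state 4. A further 139479 (4.55%) were in state 2, 3146 in state 1 and 1053 in state 5. Of the 5748135 bins in state 4, 4572307 (79.5%) kept it and 1120292 (19.5%) were in state 3. A further 45359 were in state 5, 10074 in state 2 and 103 in state 1. Of the 214194 bins in state 5, 172291 (80.4%) kept it, 41512 (19.4%) were in state 4, 387 in state 3, 4 in state 2 and 0 in state 1. Read from the testicular side, 71.7% of its state 1 bins were in state 1 in the ovarian portion, 24.5% in state 2 and 3.63% in state 3.

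**Figure D1:**
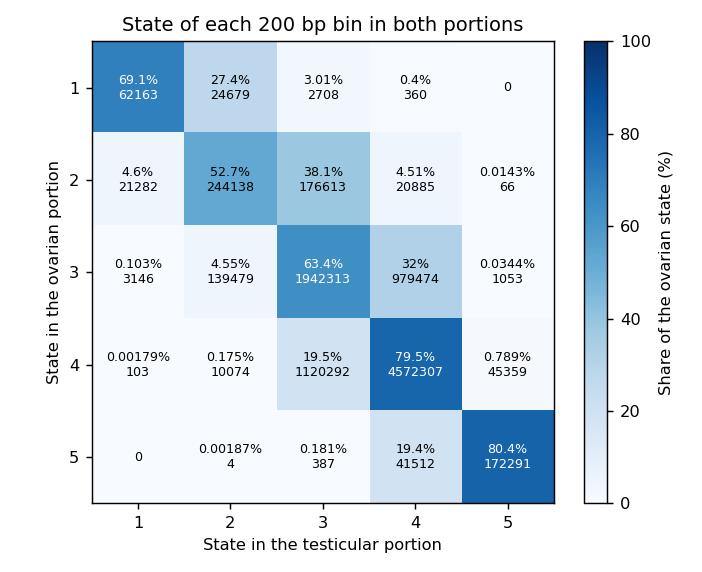
Share (colour and percent) and number of 200 bp bins in each combination of states, with the ovarian portion in rows and the testicular portion in columns; percentages add up along a row. The diagonal holds 52.7% to 80.4% of each row, and nearly all other bins lie 1 step from it.

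The direction of the single steps differed along the series of states. Between states 1 and 2, 24679 bins were lost and 21282 gained, a ratio of 1.16. Between states 2 and 3, 176613 were lost and 139479 gained, a ratio of 1.27. Losses exceeded gains on 15 of the 16 scaffolds for each of these pairs, and scaffold 2 was the exception for both. Between states 3 and 4 the order was the opposite, with 1120292 bins gained and 979474 lost, and gains exceeded losses on 13 of 16 scaffolds. The other 3 were scaffolds 2, 11 and 17. Between states 4 and 5, 45359 bins were lost and 41512 gained, with more lost on 12 scaffolds. The net gain of bins therefore came from the exchange between states 3 and 4. At the accessible end of the series the ovarian portion held more.

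**Figure D2:**
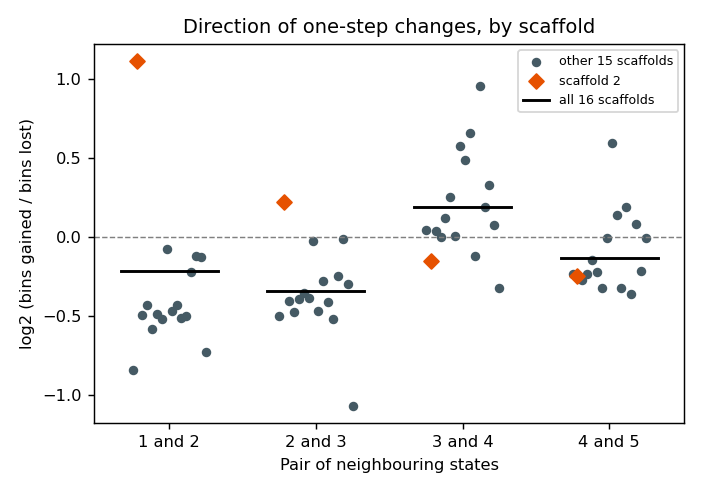
Log2 ratio of gained to lost bins for each pair of neighbouring states (x axis), 1 point for each of 16 scaffolds, with the ratio over all scaffolds as a line; above 0, the testicular portion holds the lower state number more often. Scaffold 2 lies at 1.12 for states 1 and 2, apart from all other scaffolds, and most scaffolds lie above 0 only for states 3 and 4.

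Differences of 2 or more steps were rare and leaned towards the ovarian portion. They numbered 38786, or 1.5% of the differing bins, with 25072 lost and 13714 gained, a ratio of 1.83. From state 2 to state 4, 20885 bins were lost and 10074 gained, with more lost on all 16 scaffolds. Between states 1 and 4 there were 360 lost and 103 gained bins, again with more lost on 16 of 16 scaffolds. Between states 3 and 5 they numbered 1053 and 387, and between states 2 and 5 they numbered 66 and 4. The exception was the exchange between states 1 and 3, with 3146 gained and 2708 lost bins and more gained on 11 scaffolds. Bins of 2 or more steps lay in long runs of differing bins. Runs that held one had a median length of 1800 bp in each direction, against 600 bp for the others. A longer run has more bins in which such a step can occur.

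Boundaries of state 1 were the most precisely kept and those between states 3 and 4 the least. Of 60403 edges of state 1 in the ovarian portion, 44.4% had an edge of the same orientation at the same position in the testicular portion and 62.5% had one within 200 bp, which is 1 bin. For 20.2% of them the nearest such edge was over 10 kb away, as for 3.47% of the edges between states 3 and 4. At the edges between states 2 and 3 these shares were 24.7% and 47.0%. Of 419099 edges between states 3 and 4, 9.51% kept their position, 24.1% lay within 200 bp and 49.8% within 1000 bp. Edges between states 4 and 5 stood between these, with 33.8% and 52.8%. Of the bins in states 1 to 3 in the testicular portion alone, 46.9% lengthened a stretch present in both portions, 15.5% filled a gap between such stretches and 37.6% lay in segments that overlapped none.

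Gained and lost state 1 differed in form. Gained bins lay mainly in new segments, meaning segments that overlap no state 1 of the other portion, with 17790 of 24531 bins (72.5%). A further 6122 bins lengthened a shared segment at its edge, and 619 bins (2.52%) filled gaps. Of the 27747 lost bins, 16496 (59.5%) lay in segments that overlapped no state 1 of the testicular portion, and 10736 (38.7%) lay at the edges of shared segments. Shared segments were accordingly shorter in the testicular portion. Among 19467 segments that matched 1 to 1, 48.3% had equal length, 34.9% were longer in the ovarian portion and 16.8% were longer in the testicular portion. The mean difference was 48.5 bp. With states 1 and 2 together, the ovarian portion had the longer segment in 46.0% of 57214 matches and the testicular portion in 30.7%. With states 1 to 3 the shares were nearly equal, 45.7% and 47.0% of 98094.

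New state 1 segments were about as many in each direction. Of the 29956 state 1 segments of the testicular portion, 9681 (32.3%, Wilson 95% interval 31.8% to 32.8%, for counting error only) overlapped no state 1 of the ovarian portion. Of the 30202 segments of the ovarian portion, 9934 (32.9%, 32.4% to 33.4%) overlapped none of the testicular portion. Their order depended on length. Segments of at least 400 bp numbered 4949 gained and 4553 lost. Over new segments of every length, the summed length was 3.56 Mb gained against 3.3 Mb lost. Most of them were 1 step away in the other portion. Of the gained segments, 7808 (80.7%) reached state 2 in the ovarian portion, 1792 (18.5%) reached state 3 and no better, and 81 (0.837%) lay in states 4 and 5 throughout. For the lost segments these counts were 8190 (82.4%), 1503 (15.1%) and 241 (2.43%). The nearest state 1 of the other portion was a median of 15600 bp away from a gained and 16000 bp from a lost segment. It lay within 1000 bp for 9.36% and 9.63% of them.

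The new segments were short, and the gained ones were somewhat longer. A length of 200 bp, the smallest possible, was found for 48.9% of the gained and 54.2% of the lost segments, with medians of 400 bp and 200 bp and means of 367.5 bp and 332.1 bp. Segments of 1000 bp or more numbered 300 gained and 174 lost, and the longest spanned 6400 bp and 2600 bp. With states 1 and 2 together the order of the means was the other way, 526.1 bp for 33784 gained and 573 bp for 36571 lost segments. New segments of states 1 to 3 were longer, with a median of 1000 bp in each direction. Of these, 66570 were gained and 55761 lost, and they summed to 84.996 Mb and 69.2 Mb.

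**Figure D3:**
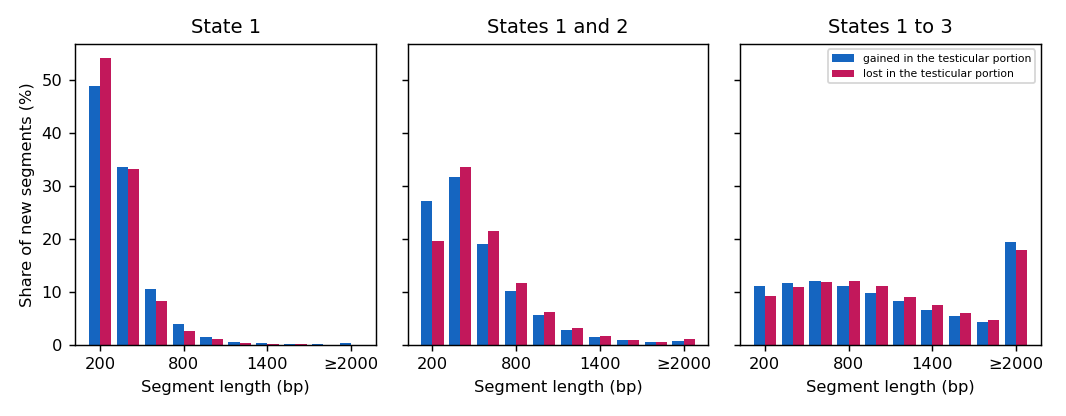
Length of new segments (x axis, steps of 200 bp, the last class from 2000 bp) as a share of all new segments of that direction (y axis), for state 1, for states 1 and 2 and for states 1 to 3. Segments of 200 bp make up 48.9% of the gained and 54.2% of the lost state 1 segments, and gained segments are the longer ones for state 1 but not for states 1 and 2.

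The longest segments in state 1 in 1 portion and in states 3 to 5 throughout in the other were 1000 bp for the testicular and 1600 bp for the ovarian portion. There were 1873 such segments gained and 1744 lost. The 5 longest gained ones lay in state 3 in the ovarian portion throughout. Those of 1000 bp were on scaffold 4 (52193001 to 52194000) and scaffold 11 (74842201 to 74843200), and each held state 1 in part of its length in the male testis as well. The next 3 spanned 800 bp each on scaffold 1, at 33087601 to 33088400, 105969001 to 105969800 and 119852601 to 119853400. The last of these was in state 1 throughout in the testis, and the others were in state 2. Segments of equal length stand in order of position, here and below, so others may tie with the shortest ones named. The longest lost segment lay on scaffold 9 at 117831601 to 117833200. Those of 1400 bp lay on scaffold 2 (14882601 to 14884000) and scaffold 9 (28525801 to 28527200). The remaining ones, of 1200 bp and 1000 bp, were on scaffold 16 (85816801 to 85818000) and scaffold 2 (17476801 to 17477800). In the testis none of these 5 lost segments held state 1: 3 were in states 2 and 3, and those of scaffold 2 were in state 3 throughout.

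Differing bins formed short runs at short distances. There were 278900 runs of gained bins with a median length of 600 bp and a mean of 958.2 bp, and 285557 runs of lost bins with a median of 600 bp and a mean of 876.3 bp. The next run of the same direction followed after a median of 3200 bp for gained and 3000 bp for lost runs, and after at most 10 kb in 82.8% and 82.9% of cases. Long runs were more often gained: 124 gained and 44 lost runs reached 10 kb. The longest gained run spanned 21600 bp on scaffold 17 at 24779801 to 24801400, where the ovarian portion was in state 4 and the testicular one in state 3 from end to end. The mean state of the testis there was 3.12. The next were 20000 bp on scaffold 1 at 147746401 to 147766400, 18600 bp on scaffold 8 at 2342801 to 2361400, 17200 bp on scaffold 5 at 123516001 to 123533200 and 16800 bp on scaffold 8 at 3138001 to 3154800. The longest lost run spanned 19400 bp on scaffold 12 at 146601 to 166000. The ovarian portion had a mean state of 2.62 there, the testicular portion 3.8 and the testis 3.73. The next spanned 16400 bp on scaffold 17 at 37459201 to 37475600, 16200 bp on scaffold 14 at 74796001 to 74812200, 14000 bp on scaffold 13 at 101819201 to 101833200 and 12600 bp on scaffold 12 at 83685401 to 83698000.

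Differences clustered at more than 1 scale. Next to a differing bin, 78.4% of bins also differed, and at 1 kb 43.5% did. At 5 kb the share was 29.4%, close to the 27.0% of all bins, and at 1000 kb it was 27.2%. The direction of the differences reached much further. Of pairs of differing bins 1 kb apart, 90.8% had the same direction, against 50.1% from the shares of gained and lost bins alone. At 10 kb it was 64.7%, at 100 kb 59.2%, at 1000 kb 53.9% and at 10000 kb 51.2%. Thus the presence of a difference was local to a few kb, whereas its direction was shared over longer distances.

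**Figure D4:**
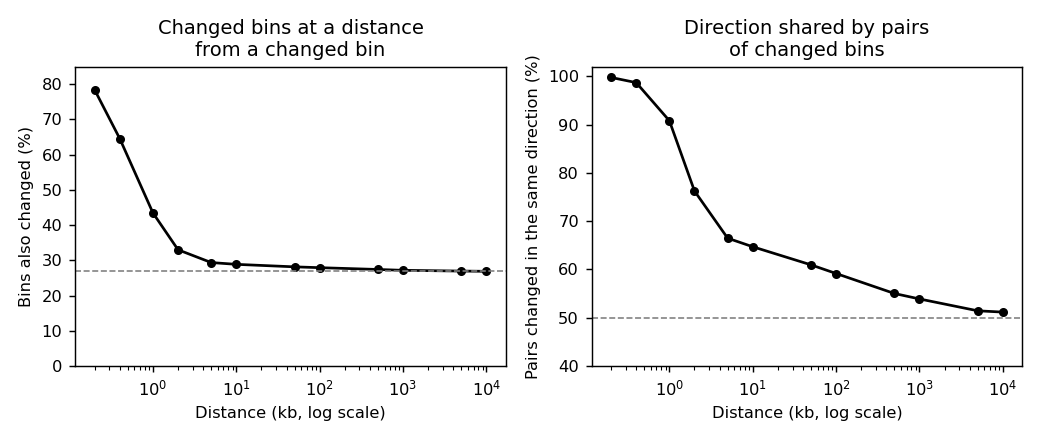
Left, the share of bins that differ at a given distance from a differing bin; right, the share of pairs of differing bins with the same direction; x axes in kb on a log scale. Dashed lines give 27.0% (all bins) and 50.1% (from the shares of both directions). The left curve is at 28.9% at 10 kb, near its line, and the right one is still at 59.2% at 100 kb.

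New state 1 segments also shared direction with their neighbours. Of 19599 pairs of neighbouring new segments, 61.0% had the same direction, where the shares alone give 50.0%. The share was 80.7% of the 1556 pairs less than 2000 bp apart, 68.9% from 2000 to 10000 bp, 60.2% from 10000 to 50000 bp, 56.3% from 50000 to 200000 bp and 54.2% beyond. Gained segments more often had a close neighbour of their own direction. The next gained segment followed after a median of 66600 bp and within 10 kb in 21.8% of cases. For lost segments the median was 91900 bp and the share 12.3%. The mean distances had the other order, 197076 bp for gained and 192254 bp for lost segments. For segments shared by both portions the median and share were 33200 bp and 24.7%. The longest unbroken series held 96 gained segments on scaffold 14 from 18832401 to 19905400, 81 and 75 on scaffold 2 from 40912401 to 41407800 and from 30428401 to 30814200, and 68 on scaffold 8 from 119334801 to 119775200. The longest series of lost segments held 44, on scaffold 2 from 17343801 to 21091800. That span of 3748 kb is wider than any of the 4 gained series just named, of which the widest spans 1073 kb. Series of 10 or more numbered 93 gained and 91 lost.

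The densest groups of state 1 differences were nearly all gains of the testicular portion, and most of them lay on scaffold 2. Windows of 100 kb hold 500 bins. At least 25 bins entered state 1 in 65 of 19156 windows (0.339%), and at least 25 left it in 8 (0.0418%). Scaffold 2 held 50 of the 65, all between 30300001 and 41700000, and none of the 8. This stretch of 11.4 Mb is 0.595% of the bins and held 3624 of the 24531 gained state 1 bins, or 14.8%, against 423 lost ones. There the ovarian portion held 5.82% of its bins in state 1, the testicular portion 11.4% and the testis 5.32%. The testicular portion stood at 1.96 times the ovarian portion, and the testis lay slightly below the ovarian portion. The ratio is no separate result, because the same state 1 bins picked the dense windows of the stretch. Outside the stretch, state 1 covered far less of scaffold 2: 0.826% (ovarian portion), 0.72% (testicular portion) and 0.825% (testis). Dense state 1 was therefore a feature of the stretch in every tissue, whereas the excess of the testicular portion was the ground for choosing it. Gains exceeded losses here between states 2 and 3 as well, with 5716 and 1072 bins. State 5 was also frequent, with 7.53% of the stretch in the ovarian and 8.16% in the testicular portion. On the rest of scaffold 2 it covered 5.13% and 5.3%, and over all bins 2.24% and 2.28%. The part of state 5 in the result was not tested.

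**Figure D5:**
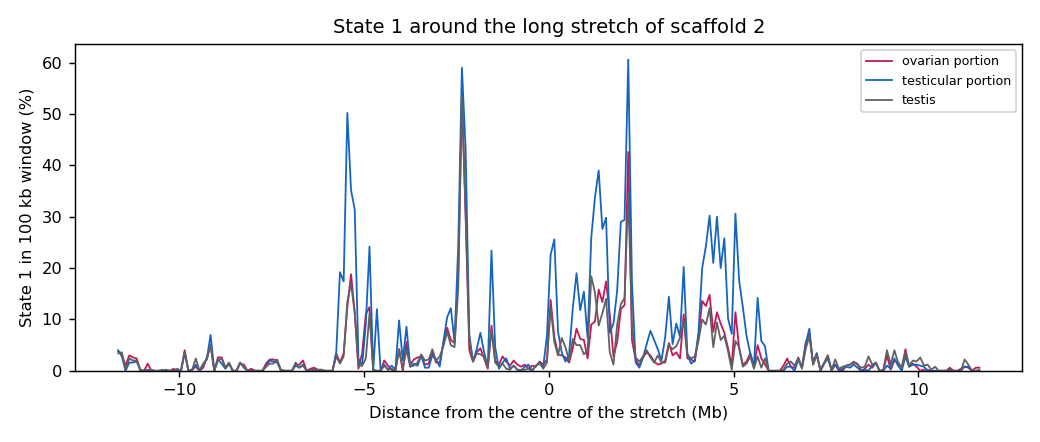
State 1 as a share of each 100 kb window (y axis) along scaffold 2, by distance from the centre of the 11.4 Mb stretch (x axis, Mb), in the ovarian portion, the testicular portion and the testis. Inside the stretch the testicular portion lies above the ovarian portion in 82 of 114 windows and below it in 27, and it lies above both other tissues in 77. Of the 114 windows, 50 were picked because at least 25 bins entered state 1 in the testicular portion. The count of 82 is thus partly set by this choice.

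Gap filling was more frequent among the gains within the stretch than among those outside it. New segments held 60.2% of its gained state 1 bins, edges of shared segments 30.6% and filled gaps 9.19% (333 bins). On the 16 scaffolds outside it these shares were 74.7%, 24.0% and 1.37% (286 bins). A gap can be filled only between shared segments, and state 1 was denser in the stretch (5.82% of it in the ovarian portion) than on the rest of scaffold 2 (0.826%). The part of this density in the shares was not tested. The window of the stretch with the most gained state 1 bins, at 30500001 to 30600000, held 62 ovarian, 251 testicular and 67 testis bins in state 1. The windows at 37300001 to 37400000 and at 37200001 to 37300000 held 79 and 48 such bins for the ovarian portion, 195 and 169 for the testicular portion, and 44 and 76 for the testis. On the rest of scaffold 2, 1197 state 1 bins were gained and 1949 lost. Without the stretch, new state 1 segments numbered 8688 gained and 9823 lost on the 16 scaffolds, and their summed length was 3.12 Mb gained against 3.26 Mb lost. The larger summed length of gained state 1 segments given above thus rests on this stretch. State 1 bins lost exceeded those gained by 1.13 times with it and by 1.31 times without it. The median distance was 84000 bp between gained and 92600 bp between lost segments without it. Without all dense stretches these were 88400 bp and 93600 bp, and 13.5% and 12.1% of neighbours lay within 10 kb. Without the stretch of scaffold 2, 75.5% of neighbouring new segments less than 2000 bp apart still shared direction.

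Other dense gains were single spots, picked by the same limit on state 1 gained in the testicular portion. On scaffold 14 from 19000001 to 19400000, the ovarian portion held 12 bins in state 1, the testicular portion 337 and the testis 16. On scaffold 8 from 119500001 to 119800000 the counts were 72, 367 and 6. On scaffold 9 from 78600001 to 78700000 they were 2, 69 and 7. In these 3 spots the testis held far less state 1 than the testicular portion. On scaffold 7 from 1400001 to 1500000 the counts were 13, 37 and 30, and on scaffold 17 from 52000001 to 52100000 they were 8, 49 and 34, so there the testis stood nearer the testicular portion. The other dense gains lay on scaffold 6 from 74000001 to 74100000 (12, 39 and 10), on scaffold 8 from 44000001 to 44100000 (135, 198 and 81), on scaffold 12 from 44300001 to 44400000 (42, 65 and 32) and on scaffold 13 from 54000001 to 54200000 (94, 131 and 96). The dense losses numbered at most 68 bins in a stretch, on scaffold 13 from 53700001 to 53900000, which exceeds several of the single dense gains. The windows with the most losses were on scaffold 13 (53800001 to 53900000), with 120 ovarian, 97 testicular and 66 testis bins in state 1, and on scaffold 1 at 3000001 to 3100000, with 53, 24 and 16. Compared with the testis in place of the ovarian portion, the testicular portion alone held 25 or more state 1 bins in 70 windows, 54 of them on scaffold 2. Both counts use the same testicular segmentation.

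Over all states, the windows of 100 kb most shifted towards the testicular portion differed mainly by the exchange between states 3 and 4. On scaffold 1 at 147200001 to 147300000, 73.4% of the bins were gained and 0.2% lost, and the ovarian portion held 16.6% of it in states 1 to 3, the testicular portion 87.2% and the testis 77.6%. In state 1 were 0, 2 and 1 bins of that window. On scaffold 8 at 3000001 to 3100000, 65% were gained and states 1 to 3 covered 15.2%, 73.2% and 85%. The next windows lay on scaffold 3 at 141700001 to 141800000 and at 150300001 to 150400000 and on scaffold 8 at 700001 to 800000, with 61.8% to 65% gained. The most shifted the other way was on scaffold 12 at 100001 to 200000, where 63.6% of the bins were lost and 3% gained. The ovarian portion held 98.2% of it in states 1 to 3, the testicular portion 66.8% and the testis 59.4%. Those on scaffold 13 (101700001 to 101800000), scaffold 14 (74800001 to 74900000) and scaffold 17 (50800001 to 50900000 and 48500001 to 48600000) followed, with 55.2% to 60.4% lost. Windows in which 1 direction made up at least 90% of the differing bins numbered 1094 (5.71%) for gained and 843 (4.4%) for lost bins.

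Bins entering state 1 were more concentrated than bins leaving it. The 5% of 100 kb windows with the most gained bins held 14.0% of all gained bins, and those with the most lost bins held 12.8% of lost bins. For bins entering state 1 the corresponding share was 47.1%, and for bins leaving it 30.9%. The stretch of scaffold 2 held 14.8% of the bins entering state 1 in 0.595% of all bins. The concentration of state 1 differences was not computed without this stretch. Windows without any bin entering state 1 made up 62.9%, and those without any leaving it 51.3%. The ratio of variance to mean over windows was 16.9 for bins entering state 1 and 3.9 for those leaving it. For all gained and all lost bins, which are far more numerous, it was 31.1 and 24.1, so shares held by the top windows cannot be compared between rare and frequent differences.

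The balance of directions also varied with position. From 1 to 5 Mb from a scaffold end, 17.8% of bins were gained and 10.7% lost, a ratio of 1.66, with more gained on 12 of 16 scaffolds. Leaving out any 1 scaffold gave ratios from 1.54 to 1.75. In the outermost 1 Mb the order was the opposite, with 13.3% gained and 15.6% lost and more lost on 12 scaffolds. From 5 to 20 Mb the ratio was 1.27, with more gained on 14 scaffolds, and beyond 20 Mb the shares were 13.1% and 13.6%. No source used here says whether these ends are chromosome ends. By scaffold, gained bins made up between 11.3% (scaffold 17) and 16.8% (scaffold 10), and lost bins between 10.6% (scaffold 12) and 16.1% (scaffold 17). Gained bins exceeded lost bins on 9 of 16 scaffolds, and state 1 gains exceeded state 1 losses on 2, scaffold 2 and scaffold 8 (1794 against 1771).

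Sorted by how accessible a window was in the testis, which had no part in choosing the bins, the balance ran from more gained to more lost. The 19156 windows were put in 5 classes by the share of states 1 and 2 in the testis. In the class with the lowest share, 13.5% of bins were gained and 11.2% lost, a ratio of 1.2. In the class with the highest share, 13.7% were gained and 15.2% lost, a ratio of 0.906. In the classes between, from low to high, the ratios were 1.25, 1.07 and 0.978, so the lowest class did not have the highest ratio. For state 1 alone, losses exceeded gains 2.25 times in the lowest class, with 881 and 391 bins. In the classes between they did so 1.66, 1.81 and 1.47 times. In the highest class gains exceeded losses, with 15715 and 13290 bins, but without the stretch of scaffold 2 they did not, with 12116 and 12927.

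The male testis was set beside both portions where they differed. At lost bins it carried the state of the testicular portion, the less accessible one there, in 59.6% and that of the ovarian portion in 37.7%. At gained bins these shares were nearly equal, 48.3% and 49.4%. In single steps among states 1 to 4 the testis was more often in the less accessible state of the pair, by little from state 4 to state 3 (50.4% against 48.1%). Where the portions had the same state, the testis shared it in 82.4%. At bins that went from state 1 to state 2, it was in state 2 in 69.7% and in state 1 in 24.7%. At bins that went from state 2 to state 1, it was in state 1 in 44.9% and in state 2 in 53.7%. From state 2 to state 3 it sided with the testicular portion in 69.4%, and from state 3 to state 2 in 42.6%. The end of the series next to state 5 was different: at bins from state 5 to state 4 the testis was in state 4 in 79.0%, and at bins from state 4 to state 5 it was in state 4 in 68.6%. At differences of 2 or more steps the testis most often lay between the portions, in 51.5% of gained and 52.8% of lost bins. It carried the state of the testicular portion in 33.8% of these gained and 37.7% of these lost bins, and that of the ovarian portion in 11.6% and 8.58%.

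In the stretch of scaffold 2 the testis seldom shared the gained state 1, and several other dense gains were alike in this. Of the gained state 1 bins of this stretch, 11.6% were in state 1 in the testis and 88.2% in state 2. On the rest of scaffold 2, 52.2% of the gained state 1 bins were in state 1 in the testis, and on all 16 scaffolds without the stretch 49.4% were. In the other dense gains the share was 0.327% and 11.1% (scaffold 8), 3.37% (scaffold 14), 3.45% (scaffold 12), 8.82% (scaffold 9) and 9.38% (scaffold 6). It was higher on scaffolds 13 (28.6%), 17 (48.8%) and 7 (67.9%). The stretch and the other dense gains were picked by state 1 that the testicular portion held and the ovarian portion did not. Such a choice can by itself lower the share in the testis, and its part was not tested. Of the lost state 1 bins, 22.3% were in state 1 in the testis. By the library numbers of their titles, the testis samples belong to another series than those of the portions, so tissue and library series cannot be told apart in any value of the testis.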

How the data were processed

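ATAC-seq was done on dissociated gonads, with 50000 cells per tagmentation, per the labels' protocols. The authors deposited 1 segmentation per tissue, which the labels attach to both of its samples. Its values are state numbers, a category without unit. The method behind the mole states is named in no source used here. STAR 2.6.1d and mm9 appear in the submitters' processing notes, without a role. Segments were expanded to bins of 200 bp, positions are 1-based, and windows filled to under 80% were left out. Dense windows of 1 direction at most 2 Mb apart were joined into a stretch. A segment was new if it overlapped no accessible segment of the other portion by 1 bp or more. The measures of state transitions, new segments, edges, filled gaps and segment matches were tested on simulated data with planted differences. Those of boundaries, runs, distances and windows were not. Named regions are the 5 longest or most shifted in each direction. The regions and measures were chosen with earlier results of these data known, and the limits for dense windows, the scaffold ends and the testis classes after seeing the data. No test was run. Analyses used Python 3.11.15, numpy 2.4.6, pandas 2.3.3 and scipy 1.17.1. The planned states at gene starts were not run, because gene coordinates on this assembly were not used here.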

Additional observations from a re-analysis of the deposited data

How the results depend on the processing

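Of 66 values recomputed under alternatives, 21 stayed within the limits set, 40 moved and 5 reversed. The limits were narrow for shares of bins: 26.8% of bins differing without state 5, against 27.0% in the report's setting, counted as moved. A moved value can thus be a very small change, and the tally is no measure of stability. No paired analysis was possible because each portion has 1 segmentation for both samples, and for the same reason leaving out each sample in turn was not run. The stretch of scaffold 2 was left out as an alternative chosen after seeing the data. The depth is unknown, so what it limits cannot be stated. Differing bins made up 26.7% with scaffold 15 added, 26.5% on all scaffolds, 26.8% without state 5 and 0.405% with steps of 2 or more. The log2 ratio of gained to lost bins, 0.09 in the report's setting, was 0.0346, 0.0690 and 0.104 in the first 3 of these, reversed to -0.87 with steps of 2 or more, and was 0.0855 without the stretch. New segments of states 1 and 2 numbered 33784 gained and 36571 lost, and state 1 segments of at least 400 bp 4949 and 4553. The log2 ratio of the numbers of new segments, -0.04, was -0.11 with states 1 and 2 and -0.18 without the stretch, and reversed to 0.12 at 400 bp and to 0.0619 on all scaffolds. That of their lengths, 0.11, was 0.0605 with an overlap under 50%, 0.23 at 400 bp and 0.26 on all scaffolds, and reversed to -0.24 with states 1 and 2 and to -0.0623 without the stretch.

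Runs joined across 200 bp lay a median of 3400 bp apart in each direction. Joined across 1000 bp they had a median length of 1000 bp and lay a median of 4800 bp apart. With steps of 2 or more there were 8184 gained runs, with a median length of 200 bp and a median distance of 98400 bp. The 12563 lost runs had medians of 400 bp and 90000 bp. The top 5% of windows held 10.8% of gained and 9.58% of lost bins at 1 Mb, 17.8% and 17.2% at 20 kb, and 47.1% and 30.9% for bins entering or leaving state 1. The testis carried the state of the testicular portion in 33.8% of gained and 37.7% of lost bins with steps of 2 or more, in 48.5% and 60.5% on all scaffolds, and in 48.5% of gained bins without the stretch.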

Other observations

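Regions outside the 16 scaffolds showed other balances of gained and lost bins. On scaffold 15, of 88.9 Mb, 3.68% of the bins were gained and 15.6% lost, and losses exceeded gains 4.83 times between states 3 and 4, where the 16 scaffolds had more gains. State 1 gained 317 and lost 1019 bins there. Scaffold 18, of 18.4 Mb, lay at the other extreme, with 35.1% of its bins gained and 2.89% lost. The ovarian portion held 241 of its bins in state 1, the testicular portion 1953 and the testis 469, with 1876 gained and 164 lost. State 5 covered 26.4%, 24.99% and 10.9% of it in the same order.

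The 4437 scaffolds beyond the 17 large ones hold 93.6 Mb in all, scaffold 18 included. The ovarian portion held 0.939% of them in state 1, the testicular portion 1.57% and the testis 0.924%, with 3920 bins gained and 959 lost. State 5 covered 33.4%, 33.8% and 29.3%. Scaffold 19 added 548 gained and 154 lost state 1 bins, and scaffold 20 added 317 and 27.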
